A study of Arabidopsis thaliana with 12 samples.

Results

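The WRKY family of Arabidopsis thaliana was examined in rosette RNA through 52 loci, chosen by gene identifier from the 33208 features of the deposited table. The RefSeq gene reference names 72 loci as WRKY by symbol or synonym, and 20 of these were not among the 52. The choice was made with earlier results of these data known. WRKY proteins are plant transcription factors named for the conserved WRKY residues of their DNA-binding domain, and most bind the W-box, a short promoter element with the core TTGAC. Many act in salicylate and jasmonate defence, in leaf senescence and in nutrient or oxygen stress, and several are themselves switched on through W-boxes in their own promoters. They are sorted by domain structure into subgroups I, IIa to IIe and III, which give the order used here.

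The plants were wild type, whose accession the labels do not name, or med25-1, a single mutant line of MED25, the Mediator subunit that links transcription factors such as those of jasmonate signalling to RNA polymerase II. All plants grew for 3 weeks on plates, and the hypoxia groups then spent 3 h at 1% oxygen while the control groups did not. Growth settings did not differ between the groups: sucrose 0.5%, light 16 h, darkness 8 h, day temperature 21 °C, night temperature 18 °C. Each of the 4 groups (wild type control, med25-1 control, wild type hypoxia, med25-1 hypoxia) had 3 biological replicates, 12 libraries in all. Values given in threes below are replicates 1, 2 and 3.

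Gene reads per library ran from 7170796 to 20501572. The shallowest, med25-1 hypoxia replicate 3, stood apart: 8.97% of its reads fell in its top 20 genes, where the other 11 libraries had 13.4% to 15.9%. MED25 itself stood at 34.6, 32.7 and 34.9 CPM (counts scaled to library size) in wild type control libraries and 22.8, 20.7 and 31.2 CPM in med25-1 control libraries. With low oxygen it had 26.2, 38.1 and 33.8 CPM in wild type and 14.2, 15.3 and 21.5 CPM in the mutant, so the mutant line kept MED25 reads in every library. As a log2 ratio the mutant differed by -0.45 ± 0.20 in control plants (edgeR adjusted p = 0.133) and by -0.96 ± 0.20 in plants held at low oxygen (edgeR adjusted p = 0.00660). The leaf genes RBCS1A, CA1 and CAB1 were abundant in every library, as rosettes should show, with RBCS1A between 5405 and 11870 CPM. Of 7 root and flower genes, RHD6 and EXPA7 had no read, COBL9 had 1 read, and only PI and PYK10 passed the filter on low counts. PI, a floral gene, stood at 0.879 ± 0.0851 CPM (SD, n = 3) in wild type control plants, 0.312 ± 0.0539 CPM in med25-1 control plants, 5.66 ± 1.48 CPM in wild type under hypoxia and 1.74 ± 0.824 CPM in med25-1 under hypoxia. PYK10, a root gene, had 100 reads over all libraries, and the part of either in the results below was not tested.

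Of the 52 members, 45 passed the filter on low counts and were tested. The other 7 had few reads over all 12 libraries: WRKY74 had 37, WRKY31 had 26, WRKY72 had 17, WRKY71 had 13, WRKY9 had 2, and WRKY14 and WRKY35 had 1 each. A gene was called when edgeR's quasi-likelihood test, adjusted over all 18212 tested genes, gave a p under 0.05, and differences are log2 ratios ± SE.

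The promoters of WRKY70, WRKY54, WRKY51 and WRKY75 are shown because these members had the smallest p between the genotypes under control conditions. Each is the stretch of 300 bases upstream of the annotated gene start, in RefSeq's TAIR10.1 sequence, read 5′ to 3′ on the gene's strand, with the W-box core TTGAC in capitals wherever it occurs on either strand. The WRKY70 promoter is at chr3:20910624-20910923 on the minus strand, that of WRKY54 at chr2:17002529-17002828 on the minus strand, that of WRKY51 at chr5:25907947-25908246 on the plus strand and that of WRKY75 at chr5:4151202-4151501 on the minus strand.
WRKY70: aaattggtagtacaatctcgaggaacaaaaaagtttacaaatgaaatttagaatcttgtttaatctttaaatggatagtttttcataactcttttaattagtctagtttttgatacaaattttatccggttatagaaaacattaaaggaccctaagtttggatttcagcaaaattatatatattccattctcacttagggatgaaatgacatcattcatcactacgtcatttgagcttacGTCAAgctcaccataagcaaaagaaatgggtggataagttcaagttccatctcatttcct
WRKY54: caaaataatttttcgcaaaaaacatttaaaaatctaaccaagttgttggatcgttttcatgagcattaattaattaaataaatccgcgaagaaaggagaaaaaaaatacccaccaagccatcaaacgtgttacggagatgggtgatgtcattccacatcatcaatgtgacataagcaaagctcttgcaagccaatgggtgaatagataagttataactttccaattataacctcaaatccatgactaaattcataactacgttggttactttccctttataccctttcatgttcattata
WRKY51: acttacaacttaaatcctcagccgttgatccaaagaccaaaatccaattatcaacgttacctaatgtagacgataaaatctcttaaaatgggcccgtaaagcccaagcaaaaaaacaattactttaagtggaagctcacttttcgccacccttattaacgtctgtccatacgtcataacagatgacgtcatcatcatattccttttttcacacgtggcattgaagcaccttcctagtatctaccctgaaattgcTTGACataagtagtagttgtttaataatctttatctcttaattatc
WRKY75: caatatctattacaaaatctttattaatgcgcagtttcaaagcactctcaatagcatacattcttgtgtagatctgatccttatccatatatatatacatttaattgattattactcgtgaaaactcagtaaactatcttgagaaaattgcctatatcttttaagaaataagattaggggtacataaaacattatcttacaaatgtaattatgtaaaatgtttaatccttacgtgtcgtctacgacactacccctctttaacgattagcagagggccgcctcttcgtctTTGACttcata
The WRKY70, WRKY51 and WRKY75 promoters each held 1 core, which ended 56, 42 and 7 bases before the gene start, and the WRKY54 promoter held none. Only that of WRKY75 had the full W-box (TTGACC or TTGACT, either strand) in this window.

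The family as a whole took a larger part of the RNA in med25-1. WRKY reads were 0.0606% to 0.0637% of gene reads in wild type control libraries and 0.0745% to 0.0880% in wild type hypoxia libraries. In med25-1 they were 0.117%, 0.181% and 0.119% under control conditions and 0.145%, 0.162% and 0.326% under hypoxia, so every mutant library lay above every wild-type library of either condition. Much of this came from subgroup III, and within it from WRKY70, which gave 1.85% to 4.08% of all WRKY reads in wild-type libraries and 12.6% to 31.5% in mutant libraries. Bulk RNA cannot tell fewer cells of a type from less RNA per cell, here or in any result below.

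**Figure D1:**
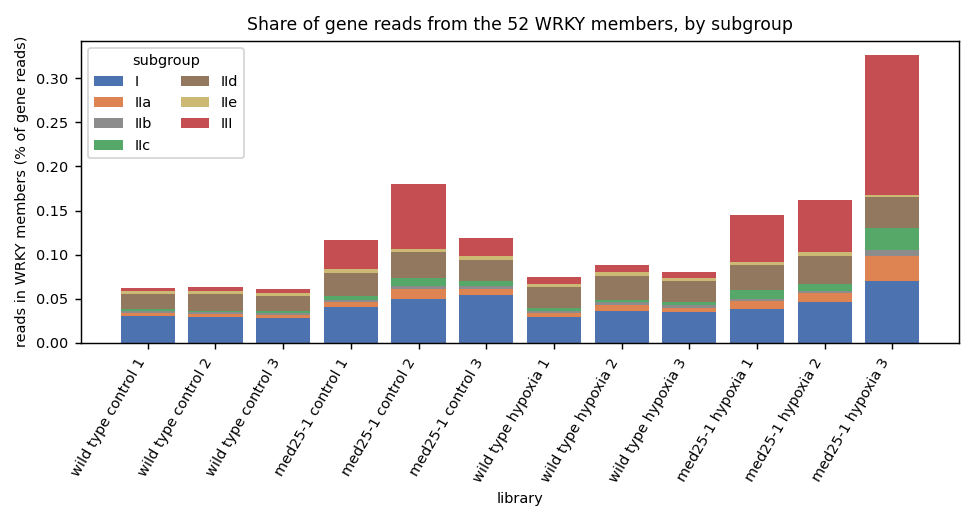
Share of gene reads from the 52 WRKY members in each of the 12 libraries (y axis, percent), stacked by subgroup. The med25-1 libraries run from 0.117% to 0.326% and the wild-type libraries from 0.0606% to 0.0880%, and med25-1 hypoxia replicate 3 has the tallest bar.

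Levels were compared between genes on the authors' RPKM, which scales reads to exon length and library size, over 3 libraries a group. In wild type control plants WRKY15 led the 52 members at 52.7 ± 4.07 RPKM (SD, n = 3), followed by WRKY25 at 26.5 ± 2.79 RPKM, WRKY26 at 24.8 ± 6.56 RPKM and WRKY3 at 17.6 ± 0.404 RPKM. WRKY70 was in place 15 of the 52 there, at 8.16 ± 0.906 RPKM. In med25-1 it was first under both conditions, at 188 ± 119 RPKM in control plants and 371 ± 241 RPKM under hypoxia, ahead of WRKY15 at 94.7 ± 13.6 and 115 ± 25.6 RPKM. WRKY46 moved from place 35 in both wild-type groups to place 3 in med25-1 under hypoxia, where it stood at 96.4 ± 77.8 RPKM. In control plants of the mutant the ranges of WRKY70 (93.4 to 322 RPKM) and WRKY15 (85.3 to 110.3 RPKM) overlapped, while under hypoxia they did not (199.6 to 647 RPKM against 88.8 to 140.0 RPKM).

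Between the genotypes under control conditions, 17 members were higher in med25-1 and 1 was lower, 18 of 45 tested or 40.0%, where 17.1% of all genes were called (8.98% higher, 8.13% lower). The members and the gene lists were chosen with earlier results of these data known. Shares of all genes, here and below, are therefore no test of these sets. The median difference of the 45 members was 0.68 on the log2 scale, against -0.02 for all genes. Libraries of the 2 genotypes did not overlap for 24 members in the higher direction and 3 in the lower, against 23.1% and 24.5% of all genes. Under hypoxia 16 members were higher in med25-1 and 2 lower, again 18 of 45, where 21.6% of all genes were called (12% higher, 9.62% lower). There the median was 0.39 against -0.05 for all genes, with 18 members higher and 5 lower without overlap, against 17.3% and 19.1% of all genes. The same 15 members were called under both conditions, 83.3% of either list: WRKY70, WRKY54, WRKY46, WRKY38, WRKY62, WRKY41, WRKY55, WRKY30, WRKY51, WRKY50, WRKY75, WRKY33, WRKY25 and WRKY15, all higher, and WRKY42, lower. How many of all genes were called under both conditions was not computed, so this overlap has no background beside it.

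**Figure D2:**
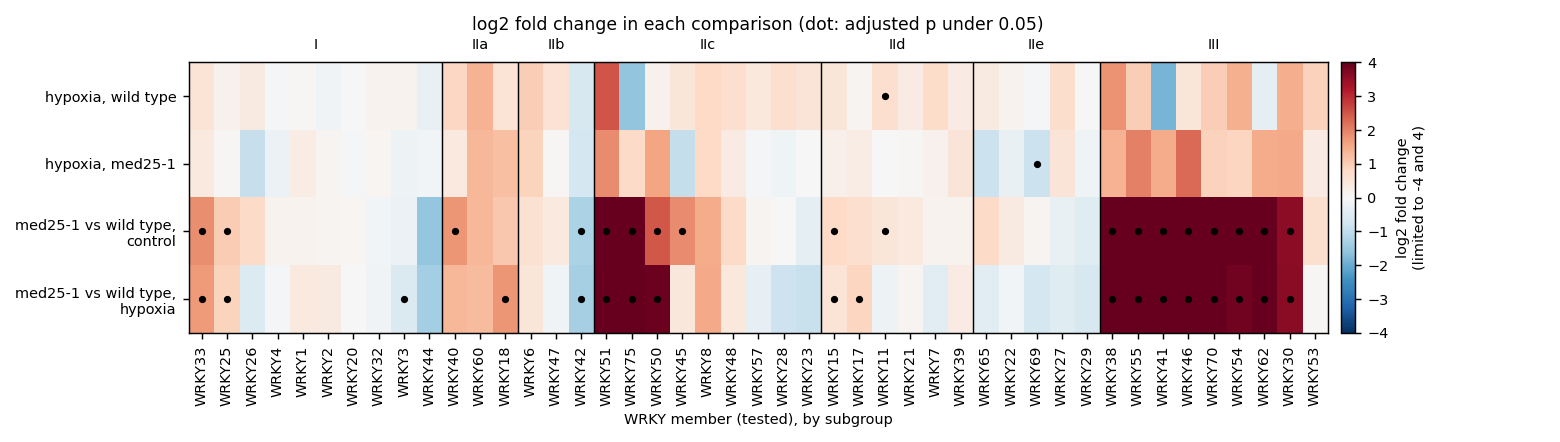
Log2 fold change of the 45 tested members (columns, by subgroup) in the 2 hypoxia and the 2 genotype comparisons (rows), with the colour limited to -4 and 4 and a dot at an edgeR adjusted p under 0.05. Subgroup III forms the dark block, with 8 of 9 members called in both genotype rows, while each hypoxia row has 1 dot.

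Nearly all of subgroup III was higher in the mutant: 8 of its 9 tested members passed the test under both conditions. Of all genes, 8.98% were called higher in control plants and 12% under hypoxia. The median difference of the subgroup was 4.51 in control plants and 5.90 under hypoxia on the log2 scale, or 4.89 with WRKY41 at its lower bound. WRKY70 and WRKY54, a related pair that acts in salicylate signalling and restrains leaf senescence, stood out by level. WRKY70 (AT3G56400, chr3:20908711-20910623) stood at 14.6, 13.8 and 11.4 CPM in wild type control libraries and 237, 511 and 153 CPM in med25-1. Under hypoxia its level was 30.5, 24.0 and 23.8 CPM in wild type and 311, 414 and 972 CPM in med25-1. Every mutant library was above every wild-type library, with med25-1 hypoxia replicate 3 the highest. The difference was 4.51 ± 0.51 in control plants (edgeR adjusted p = 0.000189), against 4.44 ± 0.51 under hypoxia (edgeR adjusted p = 0.000206), the smallest p of the tested members in each. Without med25-1 control replicate 2 the first was 3.89, and without med25-1 hypoxia replicate 3 the second was 3.80.

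WRKY54 (AT2G40750, chr2:17000419-17002528) read 1.49, 1.66 and 2.39 CPM in wild type and 31.5, 76.4 and 13.3 CPM in the mutant under control conditions. Under hypoxia these were 6.01, 5.31 and 3.95 CPM and 50.6, 47.5 and 124 CPM. The mutant values spread widely but none fell into the wild-type range. Its difference was 4.41 ± 0.64 in control plants (edgeR adjusted p = 0.000983; 3.56 without med25-1 control replicate 2), against 3.85 ± 0.59 under hypoxia (edgeR adjusted p = 0.00119).

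WRKY46 (AT2G46400, chr2:19043411-19044955), a factor of basal defence and stomatal responses, had 1.34, 0.788 and 1.22 CPM in wild type and 20.9, 54.4 and 7.46 CPM in med25-1 under control conditions. Under hypoxia it had 1.09, 1.74 and 1.98 CPM in wild type and 79.4, 64.8 and 252 CPM in med25-1, so the lowest mutant library was still well above the highest wild-type one. The difference was 4.58 ± 0.80 in control plants (edgeR adjusted p = 0.00305), against 6.35 ± 0.81 under hypoxia (edgeR adjusted p = 0.000390). Leaving out the highest mutant library, replicate 2 of control and replicate 3 of hypoxia, gave 3.63 and 5.49.

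WRKY38 and WRKY62, which together dampen basal resistance to Pseudomonas, were close to silent in wild type. WRKY38 (AT5G22570, chr5:7495455-7496990) had 0, 0 and 0.0532 CPM in wild type control libraries, a total of 1 read, and 4.16, 18.7 and 0.951 CPM in med25-1, from 366 reads. The ratio was 308-fold with a 95% counting interval of 54.8 to 12180 (edgeR adjusted p = 0.00589), with 107-fold without med25-1 control replicate 2 and 474-fold without replicate 3. Without wild type control replicate 3, which held the 1 read, it was at least 58.4-fold, with a floor of 3 counts over the group. Under hypoxia WRKY38 had 0, 0.0829 and 0.212 CPM in wild type and 15.2, 10.3 and 36.6 CPM in med25-1, a difference of 7.56 ± 1.27 (edgeR adjusted p = 0.00194; 6.88 without med25-1 hypoxia replicate 3, 8.76 without wild type hypoxia replicate 3). WRKY62 had 3 wild-type reads in control plants and 2 under hypoxia, and in med25-1 it reached 0.982, 0.952 and 1.75 CPM and 1.52, 1.86 and 7.65 CPM. Its ratios were 18.5-fold (counting interval 6.06 to 91.9, edgeR adjusted p = 0.0143) and 56.2-fold (counting interval 15.2 to 470, edgeR adjusted p = 0.00155). In control plants the WRKY62 call was lost without wild type control replicate 2 or 3 and the ratio was 38.4-fold without replicate 1; under hypoxia the ratio was 34.2-fold without med25-1 hypoxia replicate 3 and 36.3-fold without wild type hypoxia replicate 3.

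The remaining members of the subgroup were also low in wild type. WRKY55 (AT2G40740, chr2:16997078-16999499), the neighbour of WRKY54 on chromosome 2, had 0, 0.0876 and 0.0532 CPM in wild type and 1.39, 4.28 and 1.60 CPM in med25-1 under control conditions, a ratio of 50.0-fold (counting interval 13.5 to 418, edgeR adjusted p = 0.00563; 32.8-fold without med25-1 control replicate 2). Under hypoxia WRKY55 differed by 6.48 ± 0.90 (edgeR adjusted p = 0.000664; 5.43 without med25-1 hypoxia replicate 3). WRKY30, induced early by oxidative stress, had 0.0743, 0.438 and 0.478 CPM in wild type and 2.54, 8.56 and 1.501 CPM in med25-1 under control conditions and differed by 3.58 ± 0.89 (edgeR adjusted p = 0.0189). That call was lost when any wild type control library or med25-1 control replicate 2 was left out, and the value was 2.54 without the latter. Under hypoxia WRKY30 had 1.38, 0.829 and 0.635 CPM in wild type and 16.6, 3.08 and 16.0 CPM in med25-1, a difference of 3.62 ± 0.78 (edgeR adjusted p = 0.00758), a call kept in every alternative run. WRKY41, a factor of basal defence and seed dormancy, had 1 wild-type read in control plants, a ratio of 39.5-fold (counting interval 6.75 to 1592, edgeR adjusted p = 0.00717), or at least 7.495-fold without wild type control replicate 3. Under hypoxia it had no wild-type read and 91 in med25-1, at least 29.7-fold higher with a floor of 3 counts over the group (edgeR adjusted p = 0.000787) and at least 19.2- to 20.7-fold when any of the wild type hypoxia libraries was left out. The mutant libraries held 0.982, 1.02 and 0.751 CPM in control plants and 1.86, 1.43 and 4.88 CPM under hypoxia, a low level throughout. WRKY41 shares 517 bases with the neighbouring gene AT4G11080, and 62.6% of its total reads were uniquely placed, so its level is uncertain.

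WRKY53, the senescence regulator of the subgroup, was the exception. It had 14.3, 27.7 and 26.8 CPM in wild type and 29.9, 50.2 and 27.8 CPM in med25-1 under control conditions, a difference of 0.65 ± 0.30 that was not called (edgeR adjusted p = 0.166). Under hypoxia it had 42.9, 48.3 and 40.5 CPM in wild type and 42.8, 31.2 and 62.5 CPM in med25-1, and the groups overlapped with a difference of 0.04 ± 0.30 (edgeR adjusted p = 0.936). The fitted 95% interval under hypoxia was from -0.55 to 0.63, so a change of the size seen for WRKY70 lay outside it. WRKY53 shares 341 bases with AT4G23800.

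**Figure D3:**
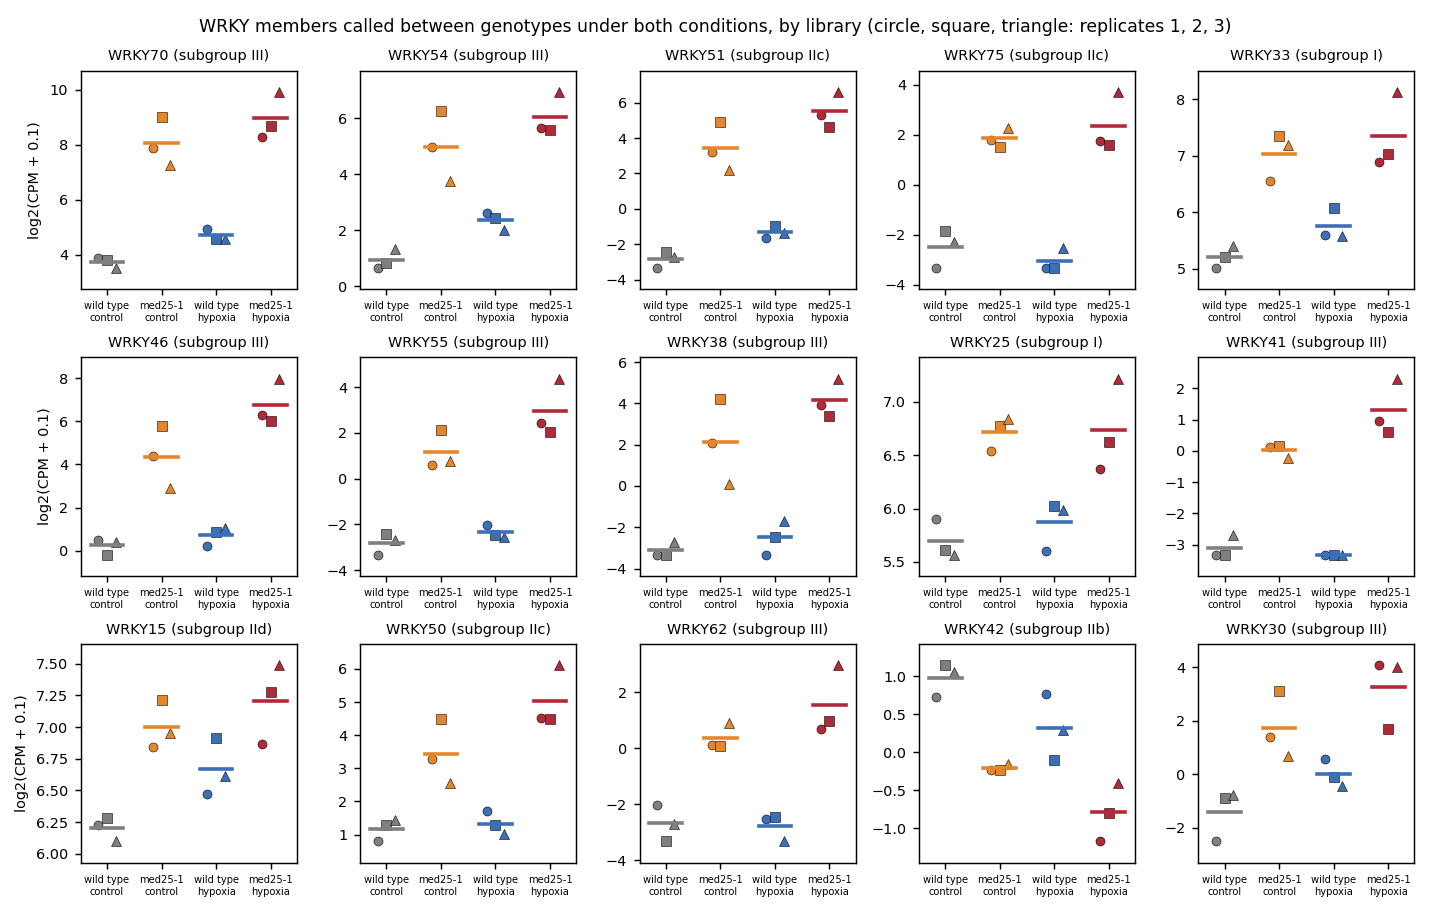
Level of the 15 members called between the genotypes under both conditions, by library, as log2(CPM + 0.1); symbols mark replicates 1 to 3, horizontal lines the group means, and each panel has its own scale. In the panels of the 14 members higher in med25-1, hypoxia replicate 3 is the highest mutant hypoxia library in 13, and only WRKY42 runs the other way.

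In subgroup IIc, 4 of 9 tested members were higher in med25-1 under control conditions and 3 under hypoxia, where 8.98% and 12% of all genes were. WRKY50 and WRKY51, paralogs that mediate repression of jasmonate responses by salicylate, were called under both. WRKY51 (AT5G64810, chr5:25908247-25909881) had 0, 0.0876 and 0.0532 CPM in wild type control libraries, 2 reads in all, and 9.19, 30.0 and 4.55 CPM in med25-1, from 692 reads. The ratio was 291-fold (counting interval 80.2 to 2405, edgeR adjusted p = 0.00111) and 147-fold without med25-1 control replicate 2. Under hypoxia WRKY51 had 0.217, 0.415 and 0.282 CPM in wild type and 39.2, 24.2 and 97.7 CPM in med25-1, and the difference was 7.43 ± 0.92 (edgeR adjusted p = 0.000316; 6.68 without med25-1 hypoxia replicate 3). No mutant library came near the wild-type range. WRKY50 was less unequal, with 1.64, 2.36 and 2.60 CPM in wild type and 9.65, 22.2 and 5.75 CPM in med25-1 under control conditions and 3.19, 2.32 and 1.91 CPM and 22.9, 22.1 and 68.7 CPM under hypoxia. It differed by 2.49 ± 0.57 (edgeR adjusted p = 0.0124; 1.79 without med25-1 control replicate 2) and 3.92 ± 0.58 (edgeR adjusted p = 0.000930; 3.19 without med25-1 hypoxia replicate 3).

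WRKY75, known for its part in phosphate starvation and as a promoter of leaf senescence, had 0, 0.175 and 0.106 CPM in wild type and 3.35, 2.72 and 4.70 CPM in med25-1 under control conditions. Its mutant control libraries lay close together and all above wild type, and the difference was 5.17 ± 0.84 (edgeR adjusted p = 0.00208). Under hypoxia WRKY75 had 1 wild-type read against 201 in med25-1, at 3.24, 2.92 and 13.1 CPM, a ratio of 197-fold (counting interval 34.9 to 7804, edgeR adjusted p = 0.000507). This was 123-fold without med25-1 hypoxia replicate 3, 129-fold without wild type hypoxia replicate 1 and at least 42.4-fold without wild type hypoxia replicate 3, which held the read. WRKY45, an activator of a phosphate transporter gene, was at 1.58 ± 0.708 CPM (SD, n = 3) in wild type and 5.94 ± 3.23 CPM in med25-1 under control conditions, and it differed by 1.88 ± 0.52 (edgeR adjusted p = 0.0296). That call ended when replicate 1 or 2 of the wild type controls or replicate 3 of the mutant controls was left out, and under hypoxia WRKY45 was not called at 0.45 ± 0.53 (edgeR adjusted p = 0.577). Among IIc members called in no comparison, WRKY48 stood at 4.75 ± 1.00 CPM in wild type and 8.04 ± 3.88 CPM in med25-1 under control conditions and WRKY8 at 2.198 ± 0.558 and 6.21 ± 2.09 CPM. WRKY8 was higher in med25-1 without overlap in both conditions. In control plants it was called with DESeq2 (21.5% of all genes), the replicate block (16.9%), voom (37.2%) and the 2 groups fitted alone (29.4%). Under hypoxia it was called with RLE scaling (21.6%), DESeq2 (26.0%), no filter (16.1%), exon reads (21.9%) and the block (20.9%). In the authors' deposited table its fold was 2.73 in control plants (FDR 0.0202) and 2.78 under hypoxia (FDR 0.568). In wild type and med25-1 control plants WRKY28 stood at 4.84 ± 0.806 and 4.82 ± 1.74 CPM and WRKY57 at 3.42 ± 1.13 and 3.70 ± 0.991 CPM. Under hypoxia WRKY28 had 8.47, 5.14 and 9.25 CPM in wild type and 4.27, 4.09 and 4.48 CPM in med25-1, without overlap. A WRKY28 call there appeared with DESeq2, exon reads and voom, where 26.0%, 21.9% and 23.0% of all genes were called. The authors' deposited table gave it a fold of -1.85 there (FDR 0.0403).

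Subgroup I, whose members carry a pair of WRKY domains, held 2 members that were higher under both conditions. WRKY33, the main WRKY of camalexin synthesis and resistance to necrotrophic fungi, had 32.3, 36.6 and 42.1 CPM in wild type and 93.6, 163 and 146 CPM in med25-1 under control conditions. Under hypoxia it had 48.0, 67.4 and 47.8 CPM and 118, 131 and 280.0 CPM. The genotypes were apart in both, by 1.86 ± 0.32 (edgeR adjusted p = 0.00290) and 1.69 ± 0.32 (edgeR adjusted p = 0.00374), and both calls held in every alternative. WRKY25, linked to heat tolerance and a relative of WRKY33, had 59.7, 48.9 and 47.4 CPM in wild type and 92.9, 109.6 and 114 CPM in med25-1 under control conditions, with a difference of 1.02 ± 0.21 (edgeR adjusted p = 0.00717). Under hypoxia WRKY25 differed by 0.90 ± 0.21 (edgeR adjusted p = 0.0110), a call lost when only the 2 groups compared were fitted. WRKY3, a factor of defence against necrotrophs, was lower in med25-1 under hypoxia: 41.2, 52.4 and 46.6 CPM in wild type against 30.3, 33.0 and 31.4 CPM, a difference of -0.57 ± 0.12 (edgeR adjusted p = 0.00667), lost in the same fit of 2 groups. In control plants the WRKY3 difference was -0.22 ± 0.12 (edgeR adjusted p = 0.218). The other 7 members were called in no comparison, among them WRKY26, the third heat-linked member, at 42.9 ± 12.2 CPM in wild type and 72.7 ± 37.5 CPM in med25-1 under control conditions. WRKY4 was at 41.2 ± 5.60 and 45.5 ± 1.95 CPM, WRKY1 at 27.0 ± 1.99 and 29.6 ± 1.74 CPM and WRKY20 at 29.0 ± 1.54 and 30.8 ± 3.34 CPM.

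WRKY18, WRKY40 and WRKY60 make up subgroup IIa and are known to bind one another and to modulate defence and abscisic acid responses. WRKY40 had 6.32, 7.27 and 12.3 CPM in wild type and 18.8, 49.8 and 20.5 CPM in med25-1 under control conditions, and the difference of 1.76 ± 0.46 was called (edgeR adjusted p = 0.0229). Leaving out replicate 1 or 2 of the wild type controls, or replicate 2 of the mutant controls, ended this call, with a value of 1.17 in the last case. WRKY18 had 24.3, 38.0 and 25.5 CPM in wild type and 49.7, 62.6 and 184 CPM in med25-1 under hypoxia, a called difference of 1.75 ± 0.42 (edgeR adjusted p = 0.0133). Replicate 3 of the mutant stood far above the other libraries, and without it the WRKY18 difference was 0.95, still called. The call was lost when replicate 1 or 3 of the wild type hypoxia libraries was left out and when only the 2 groups compared were fitted. All 3 members lay higher in med25-1 without overlap under both conditions, as did 23.1% of all genes in control plants and 17.3% under hypoxia. WRKY40 missed the threshold under hypoxia at 1.33 ± 0.45 (edgeR adjusted p = 0.0525) and WRKY18 in control plants at 1.08 ± 0.42 (edgeR adjusted p = 0.101). WRKY60 missed it in both, with 1.32 ± 0.47 (edgeR adjusted p = 0.0716) in control plants and 1.26 ± 0.43 under hypoxia (edgeR adjusted p = 0.0560; 0.47 without med25-1 hypoxia replicate 3, adjusted p = 0.295).

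In subgroup IIb, WRKY42, a repressor of the phosphate exporter gene PHO1, was the member lower in med25-1 under both conditions. It had 1.56, 2.10 and 1.97 CPM in wild type and 0.751, 0.748 and 0.801 CPM in med25-1 under control conditions, and 1.59, 0.829 and 1.13 CPM and 0.344, 0.478 and 0.659 CPM under hypoxia. All these levels are low, and the genotypes did not overlap in either condition. The differences were -1.28 ± 0.32 (edgeR adjusted p = 0.0179) and -1.32 ± 0.36 (edgeR adjusted p = 0.0234). Each was lost in 5 of 19 alternatives: the first without wild type control replicate 2 or 3 or any med25-1 control library, the second without wild type hypoxia replicate 1 or 3, without med25-1 hypoxia replicate 1 or 2 or with only the 2 groups compared. WRKY6, which acts on PHO1 with WRKY42 and in senescence, was at 7.48 ± 2.09 CPM in wild type and 11.5 ± 5.39 CPM in med25-1 under control conditions, and WRKY47 at 14.0 ± 1.19 and 18.3 ± 6.72 CPM, with no call for either.

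Subgroup IId, whose members bind calmodulin, held small differences. WRKY15, the most abundant member in wild type and a factor of oxidative and osmotic stress, had 74.8, 77.7 and 68.4 CPM in wild type and 114, 149 and 124 CPM in med25-1 under control conditions. The difference was 0.81 ± 0.18 (edgeR adjusted p = 0.0103) and was not called when replicate 3 of the wild type controls was left out. Under hypoxia the WRKY15 groups overlapped, at 88.6, 121 and 97.7 CPM and 116, 155 and 179 CPM, and the call at 0.55 ± 0.18 (edgeR adjusted p = 0.0437) was lost in 11 of 19 alternatives. WRKY11 and WRKY17, related repressors of basal resistance, were called in a single condition each. WRKY11 was higher in control plants by 0.49 ± 0.14 (edgeR adjusted p = 0.0297), lost without any of the wild type control libraries or med25-1 control replicates 1 or 2. WRKY17 had 4.49, 6.22 and 5.51 CPM in wild type and 9.09, 8.60 and 11.9 CPM in med25-1 under hypoxia, higher by 0.86 ± 0.23 (edgeR adjusted p = 0.0213), lost without wild type hypoxia replicate 1 or 3 or med25-1 hypoxia replicate 3. WRKY21 stood at 33.6 ± 3.96 CPM in wild type and 44.2 ± 6.26 CPM in med25-1 under control conditions, WRKY39 at 30.3 ± 0.873 and 33.3 ± 6.05 CPM and WRKY7 at 13.3 ± 1.24 and 14.6 ± 0.832 CPM, and none of these was called in any comparison.

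Subgroup IIe had no member called between the genotypes among 5 tested, where 17.1% and 21.6% of all genes were called in control plants and under hypoxia. WRKY22, known from flagellin and submergence responses, stood at 23.6, 20.9 and 19.0 CPM in wild type control libraries and 20.3, 28.1 and 22.2 CPM in wild type hypoxia libraries. In med25-1 it stood at 28.1, 27.0 and 25.9 CPM under control conditions and 23.6, 28.2 and 13.4 CPM under hypoxia. The genotypes did not overlap in control plants, with med25-1 higher, and overlapped under hypoxia. A WRKY22 call in control plants appeared only with the 2 groups fitted alone and with voom, where 29.4% and 37.2% of all genes were called. The authors' deposited table gave it a fold of 1.24 there (FDR 0.00593). WRKY29, which acts beside WRKY22 in flagellin signalling, was at 3.62 ± 1.47 CPM in wild type and 2.57 ± 1.28 CPM in med25-1 under control conditions, WRKY27 at 1.91 ± 0.494 and 1.52 ± 0.314 CPM and WRKY65 at 0.753 ± 0.249 and 1.23 ± 0.838 CPM.

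**Figure D4:**
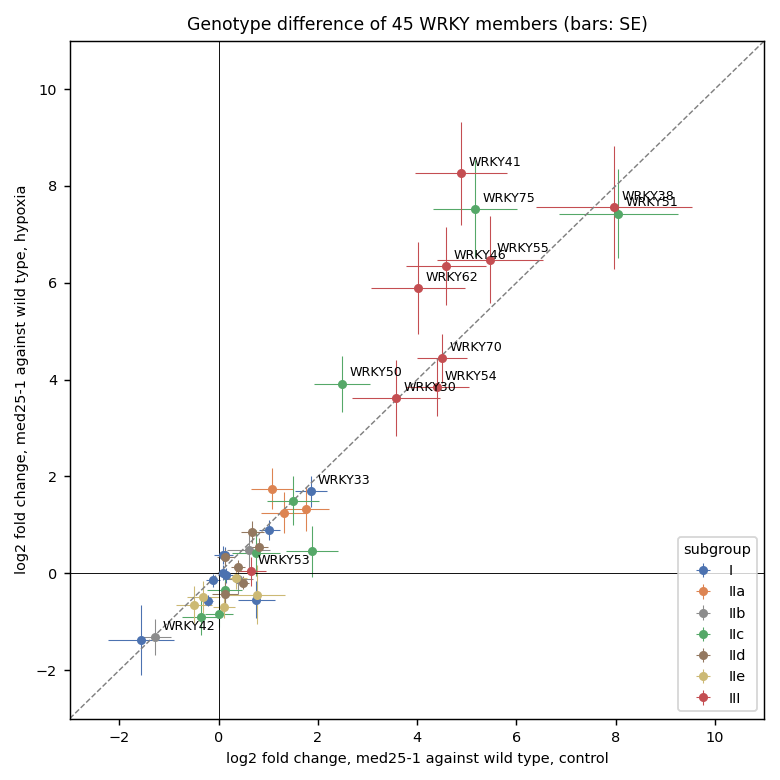
Difference between med25-1 and wild type of the 45 tested members in control plants (x axis, log2) and under hypoxia (y axis, log2), coloured by subgroup, with bars of ± 1 SE and a dashed line of equal differences. The labelled subgroup III and IIc members lie far from 0 on both axes, WRKY53 lies near the cluster of small differences, and fitted values of members with 3 or fewer wild-type reads depend on the prior count.

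Hypoxia itself moved few members past the threshold. In wild type 1 of 45 was called, where 6.48% of all genes were (3.05% higher, 3.43% lower): WRKY11 rose from 22.2, 27.7 and 26.5 CPM to 36.4, 43.8 and 41.1 CPM, by 0.67 ± 0.14 (edgeR adjusted p = 0.0118). Leaving out replicate 1 of the controls, or replicate 2 or 3 of the hypoxia libraries, ended the call. The median over the 45 members was 0.48 against 0.00 for all genes, and 36 of them had a positive value. Libraries of the 2 groups did not overlap for 15 members, all higher under hypoxia, against 16.3% of all genes in that direction. They were WRKY11, WRKY53, WRKY60, WRKY7, WRKY15, WRKY6, WRKY21, WRKY54, WRKY70, WRKY47, WRKY39, WRKY33, WRKY30, WRKY48 and WRKY51, which include 5 of the 6 tested IId members. WRKY70 and WRKY54, described above by library, differed by 0.98 ± 0.46 (edgeR adjusted p = 0.288) and 1.43 ± 0.66 (edgeR adjusted p = 0.280), and WRKY53 by 0.94 ± 0.30 (edgeR adjusted p = 0.102). WRKY60 stood at 1.26, 2.01 and 1.91 CPM in control libraries and 4.06, 4.56 and 4.94 CPM under hypoxia, a difference of 1.38 ± 0.47 (edgeR adjusted p = 0.118).

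The count for hypoxia in wild type differed between fits, and so did the share of all genes called. It was 11 when the 2 wild-type groups were fitted alone, where 13.8% of all genes were called, and 19 with limma voom and sample weights, where 30.0% were. With DESeq2 it was 3, where 9.17% of all genes were called, and without med25-1 hypoxia replicate 3 it was 5, where 10.5% were. In the authors' deposited table, 12 members were higher and 1 lower under hypoxia in wild type at an FDR under 0.05, among them WRKY70 (fold 1.99, FDR 1.28e-05) and WRKY54 (fold 2.70, FDR 5.49e-06). How many of all genes passed that FDR there was not computed.

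In med25-1 hypoxia also gave 1 call among 45, where 5.28% of all genes were called, 3.4% in the lower direction. WRKY69, a little-studied member of IIe, fell from 9.07, 6.80 and 10.8 CPM to 3.86, 6.48 and 4.09 CPM, a difference of -0.87 ± 0.23 (edgeR adjusted p = 0.0497), a call lost in 16 of 19 alternatives, and it shares 373 bases with AT3G58720. The median of the members was 0.30 against 0.02 for all genes, and 3 members were higher and 4 lower without overlap, against 9.36% and 13.3% of all genes. WRKY46 was one of the 3, with control and hypoxia libraries as given above, and differed by 2.26 ± 0.62 (edgeR adjusted p = 0.0570), or by 1.40 without med25-1 hypoxia replicate 3 (edgeR adjusted p = 0.168). The count was 10 without med25-1 control replicate 2, where 7.48% of all genes were called, and 7 without med25-1 hypoxia replicate 2, where 9.98% were.

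The hypoxia response did not differ between the genotypes past the threshold for any of the 45 members, nor for any of the 18212 genes, by edgeR. At an unadjusted p under 0.05 there were 3 members and 910 genes, and DESeq2 called 0 members and 16 genes. The smallest p was that of WRKY11, with a response difference of -0.68 ± 0.19 (med25-1 minus wild type; edgeR adjusted p = 0.909). WRKY11 stood at 35.9, 39.0 and 32.3 CPM in med25-1 control libraries and 35.3, 39.2 and 31.1 CPM under hypoxia, which are near the wild-type hypoxia values given above. Members called under a single condition, WRKY11, WRKY40, WRKY45, WRKY3, WRKY17 and WRKY18, are therefore not shown to differ between conditions.

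The authors' deposited table, from Baggerley's test on proportions, gave other counts between the genotypes at an FDR under 0.05. Under control conditions 12 members were higher and 3 lower in that table, and under hypoxia 3 were higher and 5 lower. The share of all genes past that FDR there was not computed, so these counts have no background beside them. WRKY70 had a fold of 23.4 with an FDR of 0.0666 in control plants and a fold of 25.1 with an FDR of 0.152 under hypoxia there. WRKY33 had a fold of 3.51 with an FDR of 9.7e-05 in control plants and a fold of 3.17 with an FDR of 0.105 under hypoxia in the authors' deposited table.

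Proteins that work with WRKY factors were examined as a list of 17 VQ-motif partners, defence MAP kinases and their kinases, of which 16 were tested. SIB2 had no uniquely placed read and was not tested, while its RPKM in the authors' deposited table, from total exon reads, averaged 2.55 to 5.29 over the 4 groups. Between the genotypes 9 were higher in med25-1 in control plants, where 8.98% of all genes were, and 12 under hypoxia, where 12% of all genes were, with none lower. SIB1, a VQ partner of WRKY33, had 2.08, 2.28 and 1.70 CPM in wild type and 20.5, 39.0 and 21.2 CPM in med25-1 under control conditions, a difference of 3.74 ± 0.33 (edgeR adjusted p = 4.02e-05). Under hypoxia the SIB1 difference was 2.67 ± 0.30 (edgeR adjusted p = 0.000178), and SIB1 was also the 1 list member of 16 (6.25%, against 6.48% of all genes) called for hypoxia in wild type, at 1.77 ± 0.34 (edgeR adjusted p = 0.00796). JAV1, a VQ protein that represses jasmonate responses and binds WRKY51, was higher by 2.40 ± 0.42 (edgeR adjusted p = 0.00315) and 2.64 ± 0.43 (edgeR adjusted p = 0.00157; 2.01 without med25-1 hypoxia replicate 3). MKK4, a kinase upstream of MPK3 and MPK6, was higher by 1.76 ± 0.37 (edgeR adjusted p = 0.00822) and 2.39 ± 0.37 (edgeR adjusted p = 0.00124; 1.77 without med25-1 hypoxia replicate 3). MKK9 was higher by 1.97 ± 0.27 (edgeR adjusted p = 0.000703) and 1.58 ± 0.27 (edgeR adjusted p = 0.00224), and MKK1, upstream of MPK4, by 1.42 ± 0.26 (edgeR adjusted p = 0.00414) in control plants.

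A list of 16 genes known to respond to or be bound by WRKY factors, 14 of them tested, gave 9 higher and 2 lower in med25-1 in control plants, where 8.98% of all genes were higher and 8.13% lower. Under hypoxia 8 were higher and 2 lower, against 12% and 9.62% of all genes. PAD4, a lipase-like hub of salicylate defence, had 15.2, 11.9 and 12.1 CPM in wild type and 113, 259.7 and 78.1 CPM in med25-1 under control conditions, a difference of 3.53 ± 0.52 (edgeR adjusted p = 0.00107; 2.88 without med25-1 control replicate 2). ICS1, the enzyme of the main salicylate route, was higher by 3.67 ± 0.69 (edgeR adjusted p = 0.00467; 2.66 without the same library). SAG13, a senescence marker, was higher by 6.07 ± 0.91 (edgeR adjusted p = 0.00117) and 7.09 ± 0.87 (edgeR adjusted p = 0.000312; 5.61 without med25-1 hypoxia replicate 3). PR1, the classic output of salicylate signalling, had no read in wild type control libraries and 4702 in med25-1, at least 1317-fold higher with a floor of 3 counts over the group (edgeR adjusted p = 0.00132; at least 749.8-fold without wild type control replicate 3). Under hypoxia PR1 had 3 wild-type reads and a ratio of 3982-fold (counting interval 1362 to 19310, edgeR adjusted p = 0.000497; 1916-fold without med25-1 hypoxia replicate 3, 2573-fold without wild type hypoxia replicate 3 and 8348-fold without replicate 2). PHO1, the gene that WRKY42 and WRKY6 repress, differed by -1.32 ± 0.36 (edgeR adjusted p = 0.0284) in control plants, a call lost when any of the 6 control libraries was left out, and -1.85 ± 0.38 (edgeR adjusted p = 0.00553) under hypoxia. AZI1, a gene of systemic defence priming, differed by -3.96 ± 0.54 (edgeR adjusted p = 0.000613; -4.86 without med25-1 hypoxia replicate 1) under hypoxia.

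W-boxes were counted in the same window of 300 bases before the start of each gene. Of the 19 members higher in med25-1 in either condition, 12 (63.2%) held at least 1 full W-box and 17 (89.5%) at least 1 core, against 8 (30.8%) and 13 (50.0%) of the 26 other tested members. Among 27443 protein-coding genes 32.3% held a full W-box and 50.4% a core. Among the 19, WRKY33, WRKY30, WRKY45 and WRKY11 held 3 cores each, and only WRKY54 and WRKY18 held none. Of the 26 other tested members, WRKY29 and WRKY32 held 4 cores each. The G-box CACGTG was in 3 of the 19 (15.8%) and in 7.09% of all promoters, and TGACG, counted after the sequences were read, was in 4 of the 19 (21.1%) and in 21.3% of all promoters. Each motif was searched on both strands, TTGACG would count as both a core and TGACG, and these shares describe letters in the window without a test.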

How the data were processed

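The 12 rosette libraries came from a strand-marking kit, per the labels' protocols. TAIR10 is the genome build in the submitters' processing notes; mapper, counter and counting strand: not given in the sources used here. Per the file headers, the authors deposited counts of gene and exon reads, RPKM from total exon reads, and a score (signed fold change), p-values and FDR from their own Baggerley's test. Of the table's 293 columns, 208 were not used. Uniquely placed gene reads went into edgeR 4.0.16 (R 4.3.3): filterByExpr (18212 genes kept), TMM, 1 mean per group over all 12 libraries, quasi-likelihood F test, two-sided, Benjamini-Hochberg over all genes. SEs, the log2 ratio over the root of F, are approximate; CPM use TMM library sizes. Groups at 0 reads got a floor of 3 counts, and those at 1 to 3 reads an exact 95% interval; both cover counting error only.

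The members, the lists and the tests were chosen with earlier results of these data known. Called members were named, with up to 4 uncalled ones per subgroup by level and up to 4 listed genes per comparison by smallest p; the neighbours of members, the leaf genes and PHO1, AZI1, PI and PYK10 were added after values were seen. Where 2 comparisons tied in calls, the control one chose the promoters. All 52 members matched RefSeq's TAIR10.1 by identifier, start and end. Replicate numbers did not pair the libraries throughout (18 same-number pairs, r from -0.31 to 0.49, 6 over 0.1). Between wild type and med25-1 hypoxia libraries, same-number r were 0.49, 0.11 and 0.21, and the rest ran from -0.33 to 0.19. Whether these libraries shared handling by number was not tested. Replicates differed by more than sampling noise, and a test on simulated counts was run first. The simulation changed 200 of 18212 genes, where 3115 and 3933 were called in the data, so its rates need not hold for the data. For the genotypes in control plants it recovered 42% of 2-fold and 86% of 4-fold changes. Under hypoxia it recovered 39% and 83%, so a member not called may still differ. Alternatives were RLE scaling, DESeq2 1.42.0, no filter, exon reads, only the groups compared, a replicate block, limma 3.58.1 voom with sample weights and leaving out each library.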

Additional observations from a re-analysis of the deposited data

How the results depend on the processing

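No called member reversed its direction in any alternative: 11 of 18 calls between the genotypes in control plants and 12 of 18 under hypoxia held in all 19. The number of members called in control plants (18) ran from 12 to 23 when 1 library was left out and was 23 with DESeq2 and 24 with voom. Under hypoxia (18) it ran from 14 to 21, with 13 from only the groups compared and 23 with DESeq2. Members gained with DESeq2 were WRKY17, WRKY18, WRKY21, WRKY60 and WRKY8 in control plants and WRKY28, WRKY40, WRKY60, WRKY69 and WRKY8 under hypoxia. For hypoxia in wild type the 1 call (6.48% of all genes) became 3 with DESeq2 (9.17%), 11 with only the groups compared (13.8%) and 19 with voom (30.0%). Leaving out 1 library gave 0 (3.03% to 3.84% of all genes) to 5 (10.5%). For hypoxia in med25-1 the 1 call (5.28% of all genes) became 0 with RLE scaling (4.76%), with exon reads (5.17%) and with only the groups compared (0.989%). DESeq2 gave 6 (10.6%). Leaving out 1 library gave 0 to 10, the 10 with 7.48% of all genes called. With the replicate number as a block these 4 counts were 21, 19, 1 and 0, in the order given (16.9%, 20.9%, 6.24% and 4.39% of all genes). Of the 12 libraries, 4 correlated best with their own number. The difference in response had 0 calls throughout. Voom gave smaller values for members with few wild-type reads, such as 5.31 for WRKY75, 5.51 for WRKY41 and 5.99 for WRKY38 under hypoxia; the cause was not tested. Over all genes, calls ran from 559 to 5461 for hypoxia in wild type (1181 as reported), from 175 to 1926 for hypoxia in med25-1 (961), from 1285 to 6774 for the genotypes in control plants (3115) and from 1819 to 5124 for the genotypes under hypoxia (3933). For the pairs of member or listed gene and comparison called as reported, 1544 alternative values stayed past the threshold, 146 did not and none reversed. The share of raised members with a W-box was 63.2%, or 89.5% for the core. Wild-type groups with 0 to 3 reads of a gene and the shallow med25-1 hypoxia replicate 3 limit the precision of the largest ratios.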
